A study of Mus musculus with 48 samples.

Results

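The Wnt genes described here are 3 genes of secreted antagonists (Dkk2, Dkk3 and Sfrp2), 3 genes of frizzled receptors (Fzd1, Fzd2 and Fzd6), 3 genes of the beta-catenin destruction complex (Axin2, Amer1 and Apc2) and the nuclear factor Lef1. These 10 genes, of 47480 gene symbols in each of the count tables, were chosen from their measured response to stretching, so that the stretched against non-stretched values below describe them and carry no test. The cells were C2C12, a mouse skeletal muscle myoblast line, grown on collagen-coated flexible membranes and measured by mRNA sequencing with a stranded kit. Myoblasts were stretched while undifferentiated, and differentiated cells after 4 days of differentiation, each for 1, 3 or 6 h of cyclic equibiaxial stretch. Non-stretched cells of the same stage and time were kept on the same kind of plate without the stretching, which gave 12 groups of 4 libraries. All libraries come from this 1 cell line, and the labels do not say whether replicates are separate cultures. The labels name the molecule as nuclear RNA, whereas the study's methods describe a column extraction from washed cells with no separation of nuclei.

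Myogenic identity matched the labels. The summed level of 3 muscle markers ranged from 945 to 1204 CPM (a gene's counts relative to all counts of its library) in myoblasts and from 3406 to 4047 CPM in differentiated cells, and that of 5 markers of differentiated muscle from 4.46 to 13.6 CPM and from 9746 to 12038 CPM. Sums of endothelial, blood, Schwann and neural, and adipocyte markers were at most 1.37 CPM in any library, with 1 of the 3 blood markers at 0 in all. The osteoblast list summed to 37.4 to 105 CPM, nearly all of it Runx2. Each library held 48447318 to 77080730 counts. The titles carry experiment codes, with B27 and B31 in myoblasts and B25, B28 and, in stretched differentiated cells at 1 h replicate 4 only, B17. That library had the lowest median correlation with its group. The codes are called experiments here, although in differentiated cells they conflict with the split of samples over experiments in the study's methods. Stretched myoblasts at 1 h replicate 7 had 5.72% of counts at the ribosomal RNA gene Rn18s-rs5, against 0.538% to 3.66% in the other 47 libraries. The part of these features in the results was not tested, and the values without the B17 library are given where they bear on a result.

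In the canonical branch of the Wnt pathway, secreted Wnt ligands bind a frizzled receptor and an Lrp5 or Lrp6 co-receptor, which inhibits the destruction complex that otherwise marks beta-catenin for degradation. Beta-catenin then enters the nucleus and joins TCF/LEF factors at target genes. In skeletal muscle the pathway is known for roles in myogenic commitment, differentiation and regeneration.

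Where these genes lie and which sequence precedes them gives the setting for their levels. In mm10, Dkk2 spans chr3:132085292-132180304 on the plus strand with 4 merged exons, and Axin2 spans chr11:108920349-108950783 on the plus strand with 14. Fzd6 lies at chr15:39006034-39038188, plus strand, with 9 merged exons, and Apc2 at chr10:80295977-80318263, plus strand, with 15. Fzd1 (chr5:4753839-4758035, minus strand) and Fzd2 (chr11:102604396-102608058, plus strand) each have 1 exon. Amer1 occupies chrX:95420318-95444872 on the minus strand, Lef1 chr3:131110471-131224356 on the plus strand, Sfrp2 chr3:83766321-83774316 on the plus strand and Dkk3 chr7:112116017-112159057 on the minus strand. Exons of Sfrp2, Fzd6, Axin2, Apc2 and Lef1 overlap exons of a gene on the opposite strand. The library kit marked strand, but the strand setting of the counting is not given in the sources used here. At most 1.90% of the 31-base words of any of the 10 genes occurred in another gene.

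TCF/LEF factors bind a short core, so the 250 bases before each annotated RefSeq start (GRCm38.p6) were searched on both strands for CTTTGAA or CTTTGAT or CTTTGTA or CTTTGTT. RefSeq starts were available for 6 of the 10 genes. A match occurred in 14.8% of 32851 such windows genome-wide. Among the Wnt genes, a match was found before 1 of 4 Apc2 starts, 21 bases upstream, and before 1 of 4 Lef1 starts, 147 bases upstream, and none was found before the Dkk2, Sfrp2, Fzd1 and Axin2 starts. Shown here are the windows of Dkk2, the gene with the largest stage difference, of Axin2, the common feedback target, and of the Apc2 and Lef1 starts with a match. All are on the plus strand, written 5′ to 3′ and ending at the base before the start, with the match in capitals. Both matches read as the reverse complement of a searched word. These are descriptions of letters and not of bound sites, and which start the cells used was not tested.
Dkk2, chr3:132085042-132085291: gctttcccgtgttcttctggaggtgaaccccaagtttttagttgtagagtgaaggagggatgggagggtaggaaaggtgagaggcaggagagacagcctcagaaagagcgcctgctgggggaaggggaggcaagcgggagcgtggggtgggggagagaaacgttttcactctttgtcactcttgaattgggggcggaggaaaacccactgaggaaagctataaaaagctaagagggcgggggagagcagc
Axin2, chr11:108920099-108920348: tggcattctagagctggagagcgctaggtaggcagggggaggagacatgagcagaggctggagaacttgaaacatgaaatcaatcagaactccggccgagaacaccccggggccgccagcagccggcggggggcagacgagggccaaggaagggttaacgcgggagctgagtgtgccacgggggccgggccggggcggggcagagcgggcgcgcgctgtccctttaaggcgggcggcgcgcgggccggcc
Apc2, chr10:80300792-80301041: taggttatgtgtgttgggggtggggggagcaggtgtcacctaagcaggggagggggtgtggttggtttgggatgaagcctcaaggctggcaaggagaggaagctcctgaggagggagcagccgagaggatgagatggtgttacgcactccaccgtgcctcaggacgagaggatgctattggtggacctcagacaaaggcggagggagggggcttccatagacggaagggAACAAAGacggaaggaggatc
Lef1, chr3:131156044-131156293: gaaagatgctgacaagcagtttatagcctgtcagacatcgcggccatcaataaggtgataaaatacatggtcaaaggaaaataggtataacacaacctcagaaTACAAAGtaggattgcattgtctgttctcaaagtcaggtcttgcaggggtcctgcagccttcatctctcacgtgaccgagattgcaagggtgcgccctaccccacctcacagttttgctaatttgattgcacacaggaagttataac

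Levels of the 10 genes were compared per kilobase of merged exon in the 12 non-stretched libraries of each stage. The merged length covers all annotated transcripts of a gene, from 1 for Dkk2 to 8 for Lef1. For genes with several transcripts it can exceed the length of those present, which would lower their values. Which transcripts the cells used was not tested. In myoblasts the order was led by Dkk2 at 18.7 ± 1.44 CPM per kilobase (SD, n = 12) and Fzd1 at 14.9 ± 0.730, followed by Fzd2 at 11.9 ± 0.894 and Fzd6 at 11.8 ± 0.958, which did not differ beyond their spread. Amer1 (2.70 ± 0.176) and Lef1 (1.47 ± 0.0799) were lower. Sfrp2 (0.390 ± 0.0934), Apc2 (0.350 ± 0.0494), Axin2 (0.210 ± 0.0391) and Dkk3 (0.169 ± 0.0464) were lowest, and the range of each overlapped that of its neighbour in this order. In differentiated cells Fzd1 (47.4 ± 1.55) and Fzd2 (31.2 ± 1.98) led, then Fzd6 (6.63 ± 0.455) and Amer1 (3.58 ± 0.151). Dkk3 (2.26 ± 0.298), Sfrp2 (2.17 ± 0.839), Lef1 (1.75 ± 0.158) and Axin2 (1.46 ± 0.167) followed, each overlapping its neighbour in this order, and the highest Sfrp2 library, at 4.43, lay above all Amer1 libraries. Dkk2 (0.652 ± 0.138) and Apc2 (0.377 ± 0.0690) came last, with ranges apart.

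The first comparison asks how the genes differ between the stages. It sets the mean of the 6 differentiated groups against the mean of the 6 myoblast groups in 1 edgeR quasi-likelihood fit of all 48 libraries, a contrast that does not use the stretched against non-stretched difference. A gene was called when the Benjamini-Hochberg adjusted p over all genes was under 0.05 and the log2 difference was at least 0.58 in size. Of the 10 genes, 5 were called higher and 2 lower in differentiated cells, where 27.9% of all 17044 genes tested were called higher and 23.8% lower. The stages came from different experiments, so stage and experiment cannot be told apart, and in bulk samples neither can fewer cells of a type and less RNA per cell.

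Secreted antagonists differed in opposite directions. Dkk2, which binds the Lrp5 and Lrp6 co-receptors together with Kremen, fell from 63.1 ± 9.47 CPM (SD, n = 24) in myoblasts to 2.46 ± 0.785 CPM in differentiated cells, a log2 difference of -4.71 (SE 0.0453, adjusted p = 6.82e-50). The lowest myoblast library, at 45.8 CPM, lay far above the highest differentiated library, at 5.14 CPM. Dkk3, a divergent member of the same family, rose from 0.497 ± 0.167 to 7.46 ± 0.757 CPM (log2 difference 3.97, SE 0.0491, adjusted p = 1.06e-45). Sfrp2, a soluble frizzled-like protein that binds Wnts, rose from 0.779 ± 0.188 to 4.31 ± 1.61 CPM (log2 difference 2.47, SE 0.130, adjusted p = 1.06e-21). For both, the 24 libraries of 1 stage lay apart from the 24 of the other.

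Among the receptors, which are seven-pass membrane proteins, Fzd1 rose from 63.5 ± 4.72 to 189 ± 15.1 CPM (log2 difference 1.57, SE 0.0177, adjusted p = 3.28e-47) and Fzd2 from 42.2 ± 2.92 to 109.9 ± 8.75 CPM (1.38, SE 0.0252, adjusted p = 2.88e-39). Fzd6 fell from 56.1 ± 13.3 to 31.8 ± 7.64 CPM (log2 difference -0.82, SE 0.0331, adjusted p = 5.53e-26), with overlapping ranges, since its level also varied within each stage. Axin2, a scaffold of the destruction complex, rose from 1.23 ± 0.236 to 7.98 ± 1.05 CPM (2.69, SE 0.0576, adjusted p = 1.30e-36). Amer1, a membrane adaptor that binds APC, was higher by 0.53 on the log2 scale (SE 0.0206, adjusted p = 1.03e-26) and Lef1 by 0.26 (SE 0.0394, adjusted p = 1.15e-07), both under the size limit. The log2 difference of Apc2, a homologue of APC, was 0.03 (SE 0.0545, adjusted p = 0.594).

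**Figure D1:**
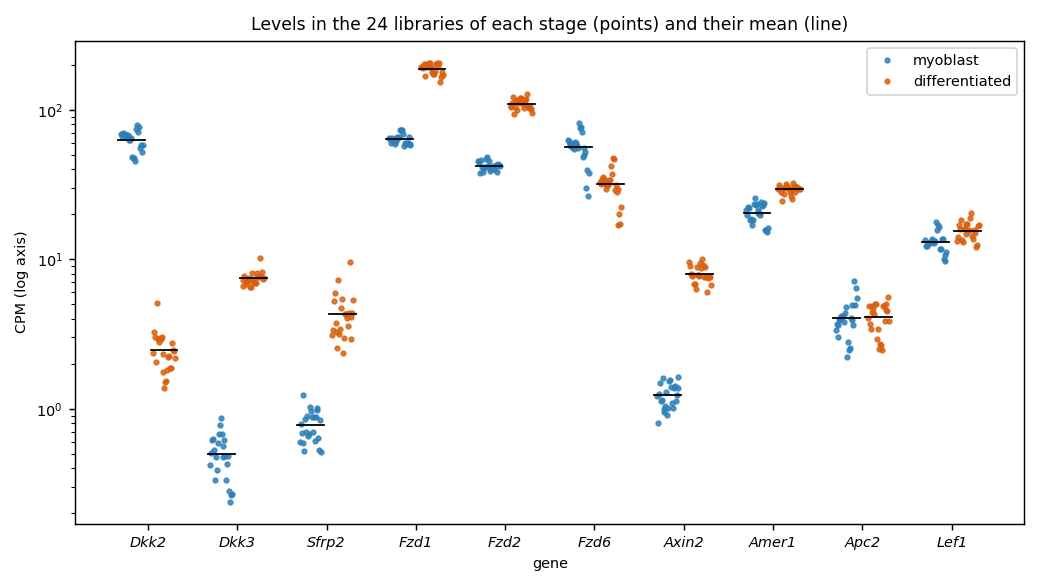
CPM (log axis) of each Wnt gene in the 24 myoblast libraries and the 24 differentiated libraries, as points, with the mean of each stage as a line. Dkk2 sits at 45.8 to 79.3 CPM in myoblasts and at 1.39 to 5.14 CPM in differentiated cells, whereas the ranges of Fzd6, Amer1, Apc2 and Lef1 overlap between the stages.

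Next, stretched cells were set beside non-stretched cells of the same stage and time. Since the genes were selected on this contrast, each log2 fold change (stretched minus non-stretched) is a description, and "past both limits" marks the adjusted p under 0.05 and the size limit of 0.58 of the edgeR fit over all genes of that comparison. In myoblasts none of the 10 genes was past both limits at 1 h, where 0.254% of all genes were called higher and 0.997% lower. One gene was lower at 3 h, where the shares over all genes were 0.459% higher and 1.25% lower. Lower values past both limits were seen for 2 genes at 6 h, with shares of 1.35% higher and 0.823% lower. In differentiated cells the numbers were 0 at 1 h (0.0901% of all genes higher and 0.180% lower), 2 lower at 3 h (0.890% higher and 0.741% lower) and 1 lower at 6 h (0.518% higher and 1.52% lower). None was past both limits in the higher direction at any time. At 1 h DESeq2 also placed none of the 10 genes past both limits in either stage. The median log2 fold change of the 10 genes ran from -0.34 in myoblasts at 6 h to -0.05 in differentiated cells at 1 h, beside medians over all genes of -0.0074 to 0.0024.

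**Figure D2:**
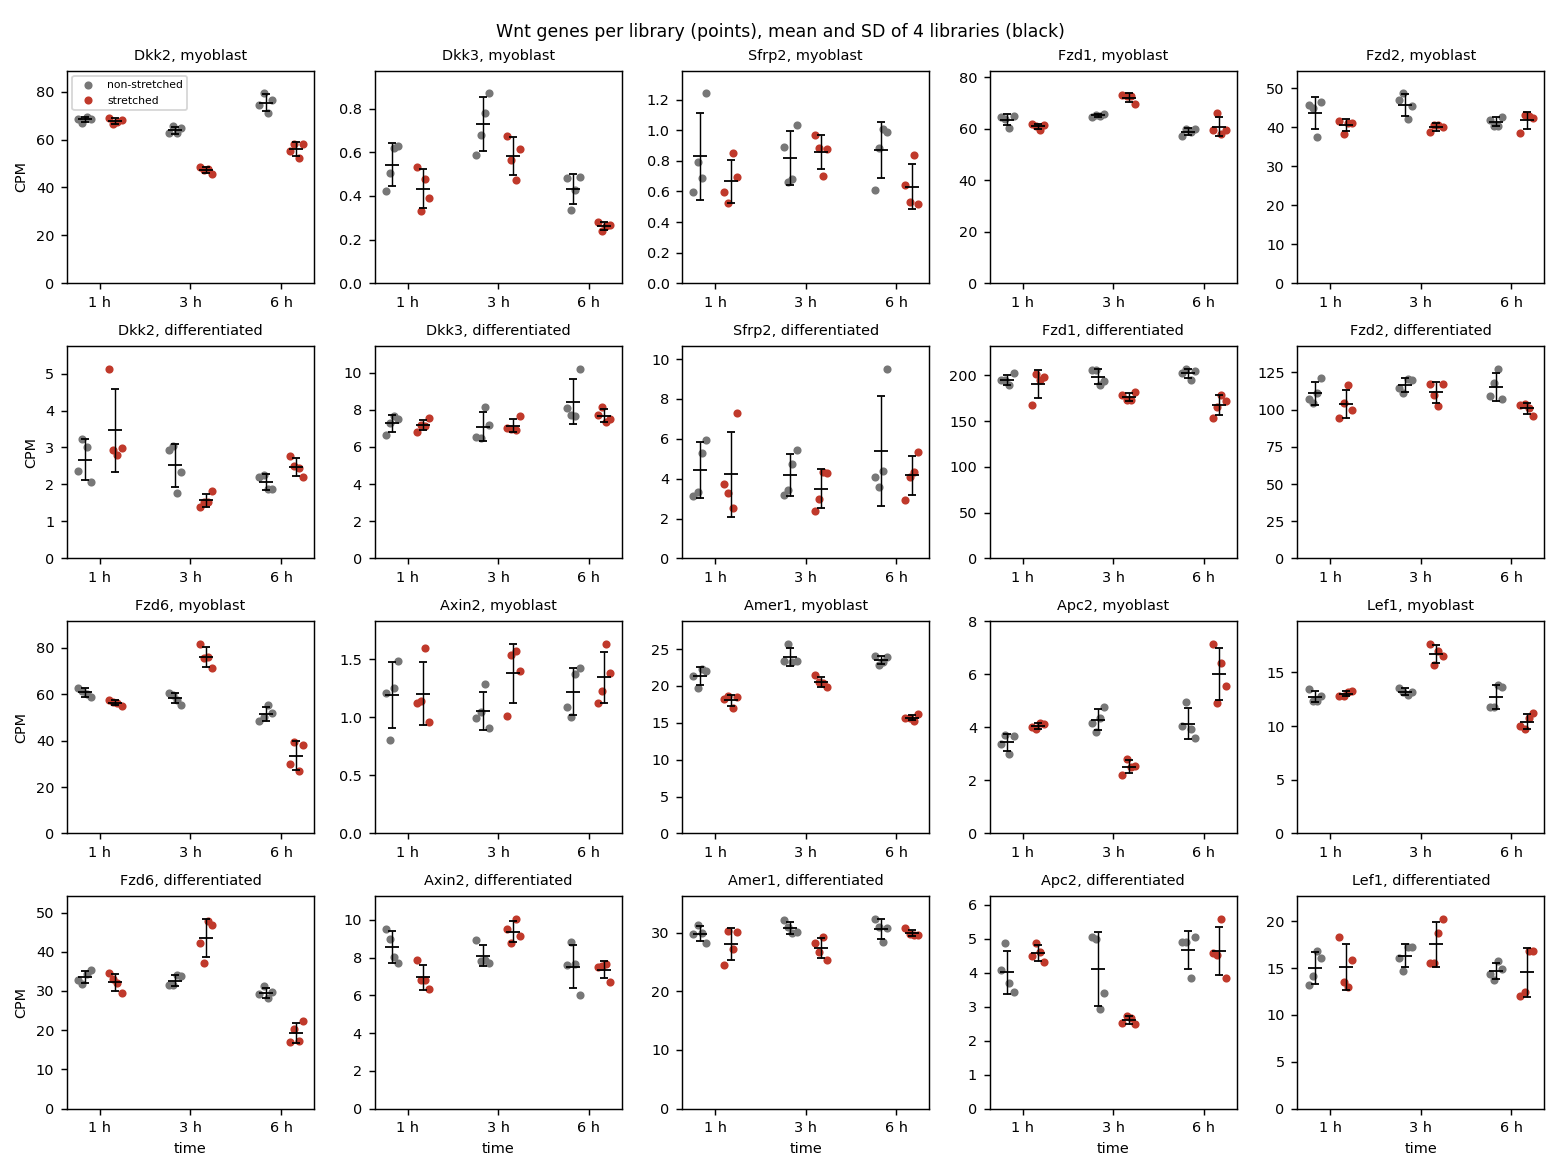
CPM of each gene in every library by hours, with non-stretched libraries in grey, stretched libraries in red, and the mean and SD of each group of 4 in black. Fzd6 lies above its non-stretched libraries at 3 h and below them at 6 h in both stages, and Apc2 lies below them at 3 h in both.

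Fzd6 had the same sequence of directions in both stages. In myoblasts at 3 h the non-stretched libraries had 60.6, 59.7, 57.7 and 55.5 CPM and the stretched libraries 81.8, 75.4, 76.2 and 71.2 CPM. At 6 h the non-stretched values were 48.7, 50.2, 55.5 and 51.9 CPM and the stretched values 29.9, 39.4, 26.7 and 38.0 CPM. Every stretched library was thus above all non-stretched libraries at 3 h and below all of them at 6 h, with log2 fold changes of 0.37 (SE 0.0379) and -0.61 (SE 0.10). In differentiated cells at 3 h, 31.4, 31.5, 34.0 and 33.7 CPM without stretching stood beside 42.3, 37.1, 47.9 and 46.8 CPM with it. The 6 h values were 29.2, 31.3, 28.2 and 29.6 CPM and 16.97, 20.2, 17.3 and 22.4 CPM. Again no libraries overlapped, and the log2 fold changes were 0.41 (SE 0.0721) and -0.62 (SE 0.0811). At 1 h the log2 fold change was -0.11 (SE 0.0328) in myoblasts, without overlap, and -0.06 (SE 0.0579) in differentiated cells, with overlap.

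Only the 6 h values of Fzd6 were past the size limit, and they lay close to it. The call in myoblasts was lost without non-stretched replicate 9, stretched replicate 7 or stretched replicate 9, and the one in differentiated cells without stretched replicate 7 or 9. Both experiments had the same direction: the difference in mean log2 CPM at 6 h was -0.52 in B27 and -0.75 in B31 for myoblasts, and -0.71 in B25 and -0.55 in B28 for differentiated cells. At 3 h it was 0.38 in both myoblast experiments, 0.33 in B25 and 0.48 in B28.

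The other receptors had smaller differences. Fzd1 was at 65.2 ± 0.537 CPM (SD, n = 4) in non-stretched and 72.0 ± 1.72 CPM in stretched myoblasts at 3 h (log2 fold change 0.13, SE 0.0249), with every stretched library above. In differentiated cells it was lower at 3 h, 199 ± 8.13 against 177 ± 4.28 CPM (-0.17, SE 0.0332), and at 6 h, 203 ± 4.97 against 168 ± 10.6 CPM (-0.28, SE 0.0456), with every stretched library below. Fzd2 was lower without overlap in myoblasts at 3 h, 45.8 ± 2.83 against 40.05 ± 0.922 CPM (-0.20, SE 0.0384), and in differentiated cells at 6 h, 115 ± 9.53 against 101 ± 3.82 CPM (-0.20, SE 0.0551). None of these reached the size limit.

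Apc2 was lower at 3 h in both stages. In myoblasts the non-stretched libraries held 4.15, 3.82, 4.36 and 4.76 CPM and the stretched libraries 2.21, 2.81, 2.48 and 2.54 CPM. The groups did not overlap, and the log2 fold change was -0.78 (SE 0.10). In differentiated cells the non-stretched values were 5.05, 5.0, 2.93 and 3.40 CPM, the first pair from B25 and the second from B28, and the stretched values 2.51, 2.72, 2.67 and 2.48 CPM. The stretched libraries were close together and below all others, whereas the non-stretched libraries separated by experiment. The log2 fold change was -0.65 (SE 0.167), with within-experiment differences of -0.94 in B25 and -0.30 in B28. In differentiated cells the call was lost on leaving out any of non-stretched replicates 7 and 8 and stretched replicates 7 and 10.

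The other times showed Apc2 at or above the non-stretched level in myoblasts. At 1 h it was 3.43 ± 0.322 CPM without and 4.04 ± 0.106 CPM with stretching (0.24, SE 0.0828), with every stretched library above. At 6 h the values were 4.04, 4.95, 3.92 and 3.61 CPM against 7.15, 4.92, 6.41 and 5.54 CPM. One stretched library there lay just below the highest non-stretched library, and the log2 fold change of 0.56 (SE 0.130) was just inside the size limit. It was past both limits when non-stretched replicate 8, stretched replicate 8 or stretched replicate 10 was left out. In differentiated cells at 6 h the log2 fold change was -0.01 (SE 0.122).

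Amer1 was lower in stretched myoblasts at each time, without overlap. Its values at 6 h were 24.0, 22.8, 23.2 and 23.9 CPM without stretching and 15.7, 15.7, 15.3 and 16.1 CPM with it. Every stretched library was below all others, and the log2 fold change of -0.56 (SE 0.0353) was just inside the size limit. The log2 fold changes at 1 h and 3 h were -0.24 (SE 0.0502) and -0.23 (SE 0.0411). Differentiated cells had a smaller difference at 3 h, 30.8 ± 1.01 against 27.4 ± 1.75 CPM (-0.17, SE 0.0474), without overlap, and overlapping groups at 1 h and 6 h.

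Axin2, widely used as a readout of canonical Wnt signalling, had no value past both limits. In differentiated cells at 1 h the non-stretched libraries were at 9.54, 8.99, 8.01 and 7.72 CPM and the stretched libraries at 7.89, 6.79, 6.81 and 6.35 CPM, a log2 fold change of -0.30 (SE 0.0939). At 3 h the values were 8.93, 7.82, 7.89 and 7.74 CPM against 9.51, 8.75, 10.1 and 9.17 CPM (0.22, SE 0.0653). At both times 1 library of a group reached into the range of the other. Without the B17 library the 1 h value was -0.36. In myoblasts Axin2 rested on 49 to 107 counts a library, with a log2 fold change at 3 h of 0.37 (SE 0.169) and overlapping groups.

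Lef1, a nuclear partner of beta-catenin, had opposite differences at 3 h and 6 h in myoblasts. The 3 h values were 13.6, 13.2, 12.9 and 13.2 CPM without and 17.7, 15.7, 16.95 and 16.5 CPM with stretching, and the 6 h values 11.7, 11.8, 13.8 and 13.6 CPM against 10.03, 9.69, 10.7 and 11.2 CPM. Stretched libraries were all above at 3 h and all below at 6 h, by log2 fold changes of 0.33 (SE 0.0431) and -0.27 (SE 0.0690), neither past the size limit. In differentiated cells the groups overlapped at each time, with log2 fold changes of 0.01, 0.10 and -0.02 at 1, 3 and 6 h.

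Among the antagonists, Dkk2 was lower in stretched myoblasts at 3 h and 6 h. At 3 h the libraries had 62.6, 65.5, 62.7 and 64.7 CPM without and 48.7, 47.4, 47.8 and 45.8 CPM with stretching. At 6 h they had 74.5, 79.3, 71.0 and 76.6 CPM against 55.4, 58.2, 52.2 and 58.3 CPM. The groups lay well apart at both times, with log2 fold changes of -0.44 (SE 0.0276) and -0.41 (SE 0.0437), inside the size limit, and at 1 h the value was -0.02 (SE 0.0279). In differentiated cells at 3 h, where Dkk2 rested on 85 to 178 counts, the values were 2.93, 3.04, 1.77 and 2.33 CPM against 1.39, 1.52, 1.53 and 1.83 CPM. The log2 fold change of -0.68 (SE 0.169) was past both limits although 1 library overlapped. It was -1.03 within B25 and -0.28 within B28, and the call was lost without non-stretched replicate 8 or stretched replicate 7. At 1 h the B17 library had 5.14 CPM and the other stretched libraries 2.79 to 3.00 CPM, and the log2 fold change was 0.37 with it and 0.12 without it. At 6 h the values were 2.21, 2.27, 1.88 and 1.86 CPM without and 2.77, 2.49, 2.44 and 2.19 CPM with stretching. The direction was opposite to that at 3 h, with a log2 fold change of 0.27 (SE 0.112), overlapping groups, and differences of 0.23 within B25 and 0.30 within B28.

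Dkk3 and Sfrp2 were at low levels in myoblasts. Dkk3 at 6 h had 0.482, 0.335, 0.427 and 0.485 CPM without and 0.282, 0.239, 0.264 and 0.267 CPM with stretching, from 14 to 31 counts a library. The groups did not overlap, and the log2 fold change was -0.70 (SE 0.204). The call was lost under DESeq2, with no filter on low counts, and on leaving out any of non-stretched replicates 7, 9 and 10 and stretched replicates 8, 9 and 10. In differentiated cells the log2 fold change of Dkk3 was between -0.14 and 0.01. Sfrp2 groups overlapped in all 6 comparisons, with log2 fold changes from -0.44 (SE 0.213, myoblasts at 6 h) to 0.07 (SE 0.181, myoblasts at 3 h).

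**Figure D3:**
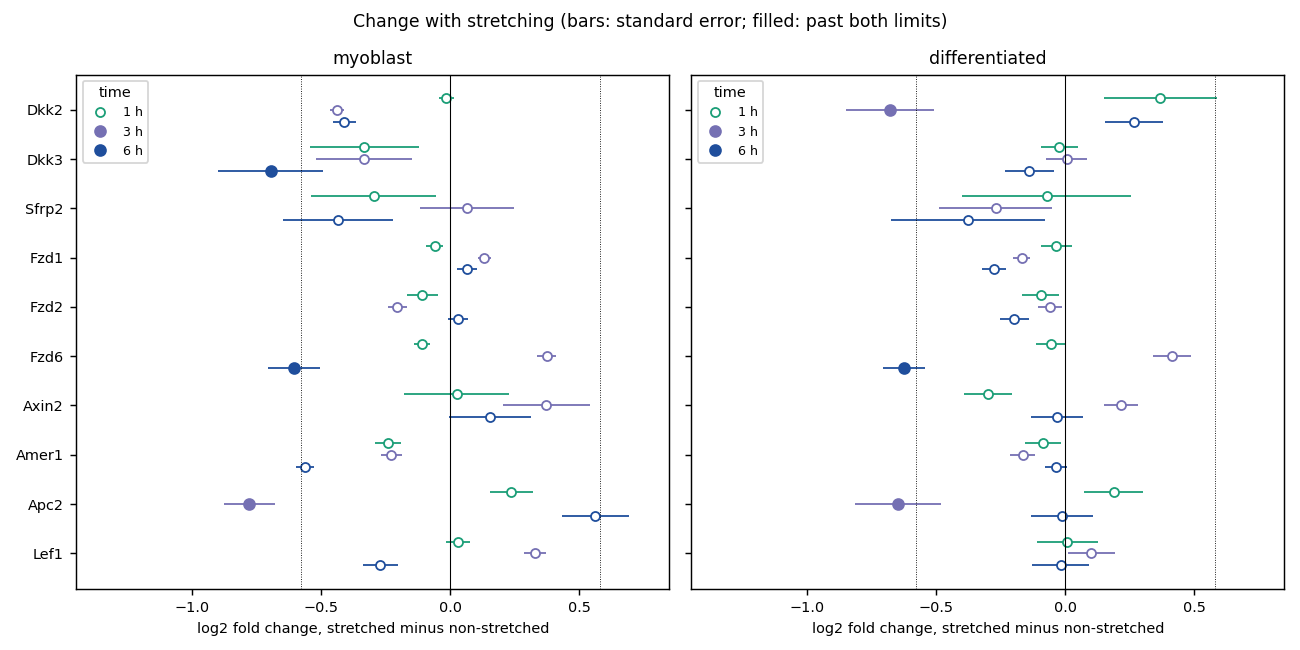
Log2 fold change (stretched minus non-stretched) of each gene with its standard error, for myoblasts and differentiated cells at 1, 3 and 6 h, with dotted lines at the size limit of 0.58 either way. Filled points, all to the left of 0, are past both limits: Dkk3 and Fzd6 at 6 h and Apc2 at 3 h in myoblasts, and Dkk2 and Apc2 at 3 h and Fzd6 at 6 h in differentiated cells.

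The level of each gene was also compared between experiments within a stage, which does not use the stretch difference. In myoblasts none of the 10 genes was called between B31 and B27 by edgeR, where 0.0765% of all genes were higher and 0.115% lower in B31. DESeq2 called none either, and 1 gene, Axin2, had an unadjusted p under 0.05 (log2 difference 0.29, SE 0.0929, adjusted p = 0.0731). In differentiated cells, without the B17 library, Sfrp2 was 3.24 ± 0.525 CPM in B25 (SD, n = 12) and 5.54 ± 1.61 CPM in B28 (SD, n = 11), a log2 difference of 0.78 (SE 0.111) with an edgeR adjusted p of 5.12e-05. It was the only one of the 10 called, beside 0.554% of all genes called higher and 0.311% lower. Lef1 was 14.0 ± 1.28 CPM in B25 and 16.98 ± 1.49 CPM in B28 (log2 difference 0.27, SE 0.0320, edgeR adjusted p = 6.94e-06), under the size limit.

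How alike the genes varied was described by Pearson's r of log2 CPM over the 24 libraries of a stage, which share the time and stretch groups. In myoblasts Fzd6 and Lef1 had r = 0.867, Fzd6 and Apc2 r = -0.907, and Apc2 and Lef1 r = -0.875. In differentiated cells the same pairs had r = 0.492, -0.642 and -0.548, and the largest value there was that of Dkk2 and Apc2, r = 0.671. Over 11401 genes whose myoblast mean reached 100 counts, those most like Dkk2 included Pomt1 (r = 0.946), Fbf1 (0.934), Spc25 (0.933) and Ttf2 (0.922). In differentiated cells, among 11871 genes, they were Fam111a (0.878), Nefl (0.871), Frk (0.852), Exoc3 (0.846) and Atad2 (0.843). Those most like Axin2 there were Adamts8 (0.770), Usp49 (0.767), Itga9 (0.743), Shroom3 (0.729) and Fbxw7 (0.727), and in myoblasts Axin2 was under the count minimum.

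The other genes of the pathway were followed through a list of 112 genes, of which 111 were in the files. In a comparison, 72 to 78 of them passed the filter on low counts. The Wnt genes chosen for their response to stretching are not in this list, which was itself chosen with earlier results known. Its counts and adjusted p-values therefore describe the listed genes. Set beside the shares of all genes, they carry no test of the pathway. With both limits, 2 of 72 were called higher and 1 lower in stretched myoblasts at 3 h (0.459% and 1.25% of all genes), and 1 of 73 higher and 1 lower at 6 h (1.35% and 0.823%). In stretched differentiated cells 3 of 78 were called higher and 1 lower at 3 h (0.890% and 0.741% of all genes), and 1 of 77 higher and 3 lower at 6 h (0.518% and 1.52%). At 1 h edgeR called none of 72 genes in myoblasts and none of 78 in differentiated cells, and DESeq2 none in myoblasts and 1 higher in differentiated cells. With the adjusted p alone, 4 rose and 2 fell in myoblasts at 1 h, beside 250 and 634 of all 14938 genes. None did in differentiated cells at 1 h, where 30 of all 15538 genes rose and 73 fell. With the adjusted p alone, 22 rose and 8 fell in myoblasts at 3 h and 13 rose and 12 fell at 6 h. In differentiated cells 17 rose and 8 fell at 3 h and 5 rose and 14 fell at 6 h. Over all genes, 2373 rose and 2346 fell of 14813 in myoblasts at 3 h and 2111 rose and 1949 fell of 14938 at 6 h by the same limit. In differentiated cells 1676 rose and 1767 fell of 15513 at 3 h, and 1772 rose and 1666 fell of 15433 at 6 h. The median log2 fold change of the list was between -0.05 and 0.06 in all 6 comparisons.

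Wnt ligands changed in both directions. At 1 h in myoblasts Wnt10b fell with the adjusted p alone, from 6.88 ± 0.593 to 4.85 ± 0.339 CPM (log2 fold change -0.51, SE 0.0814, edgeR adjusted p = 0.00352). In stretched myoblasts at 3 h Wnt6 fell from 1.52 ± 0.312 to 0.953 ± 0.0745 CPM (log2 fold change -0.69, SE 0.158, edgeR adjusted p = 0.00500) and Wnt11 rose from 0.701 ± 0.0960 to 1.10 ± 0.122 CPM (0.64, SE 0.156, edgeR adjusted p = 0.00750). Neither call held when 1 library was left out, non-stretched replicate 8 for Wnt6 and stretched replicate 8 for Wnt11. In stretched differentiated cells at 3 h Wnt4 rose from 10.1 ± 1.69 to 17.1 ± 1.64 CPM (0.75, SE 0.111, edgeR adjusted p = 0.00130) and Wnt7b from 1.33 ± 0.122 to 2.44 ± 0.349 CPM (0.88, SE 0.127, edgeR adjusted p = 0.00118). Of the 12 ligand and secretion genes tested at 6 h there, 5 fell with the adjusted p alone and none rose, where 1666 of all 15433 genes fell and 1772 rose. They included Wnt10a, from 79.3 ± 7.71 to 57.9 ± 3.89 CPM (-0.46, SE 0.0683, edgeR adjusted p = 0.00183), and Wnt6 (-0.61, SE 0.129, edgeR adjusted p = 0.00817). The Wnt6 call was lost on leaving out replicate 8 of either group or stretched replicate 9.

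Few receptors and antagonists passed both limits. The receptor gene Ror1 fell from 2.65 ± 0.344 to 1.72 ± 0.259 CPM in stretched differentiated cells at 6 h (-0.63, SE 0.137, edgeR adjusted p = 0.00895), a call lost without stretched replicate 10. The antagonist gene Sfrp4 rose from 0.289 ± 0.0655 to 0.522 ± 0.0610 CPM there (0.86, SE 0.211, edgeR adjusted p = 0.0158), a call lost without stretched replicate 7. In stretched myoblasts at 6 h Fzd7 rose with the adjusted p alone, from 74.2 ± 1.91 to 89.0 ± 5.04 CPM (0.28, SE 0.0420, edgeR adjusted p = 0.000869). At 3 h Znrf3, a ligase that removes frizzled receptors from the membrane, rose in myoblasts from 31.3 ± 0.624 to 39.1 ± 1.16 CPM (0.31, SE 0.0295, edgeR adjusted p = 1.14e-05).

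Inside the cell, Axin1, the other axin scaffold, rose with the adjusted p alone at 1 h in myoblasts (0.16, SE 0.0331, edgeR adjusted p = 0.0170) and at 3 h in both stages, by 0.28 (SE 0.0255) in myoblasts and 0.20 (SE 0.0281) in differentiated cells. Frat2, which binds the kinase Gsk3, fell in stretched myoblasts at 6 h from 2.40 ± 0.190 to 1.41 ± 0.160 CPM (-0.75, SE 0.113, edgeR adjusted p = 0.000910). Dvl2, a Dishevelled gene, rose at 6 h in both stages, by 0.26 (SE 0.0343) in myoblasts and 0.22 (SE 0.0382) in differentiated cells, under the size limit. Of the planar polarity genes, Celsr3 rose in stretched myoblasts at 6 h from 0.109 ± 0.0221 to 0.218 ± 0.0470 CPM (1.00, SE 0.295, edgeR adjusted p = 0.0266). That call was lost under DESeq2, with no filter on low counts, and on leaving out any of non-stretched replicates 7, 8 and 10 and stretched replicate 9. Vangl2 fell in stretched differentiated cells at 6 h from 15.4 ± 0.549 to 12.4 ± 0.313 CPM (-0.31, SE 0.0449, edgeR adjusted p = 0.00159).

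Groucho family genes, whose products repress transcription with TCF/LEF factors, differed among themselves. Tle4 rose in stretched myoblasts at 3 h from 1.95 ± 0.211 to 4.06 ± 0.594 CPM (1.05, SE 0.119, edgeR adjusted p = 3.48e-05). Tle3 rose at 3 h in both stages under the size limit, by 0.35 (SE 0.0243) in myoblasts and 0.30 (SE 0.0305) in differentiated cells, and Tle1 rose at 6 h in both, by 0.36 (SE 0.0442) and 0.38 (SE 0.0403). Tle2 fell in stretched myoblasts at 1 h from 8.52 ± 0.340 to 6.56 ± 0.530 CPM (-0.38, SE 0.0655, edgeR adjusted p = 0.00563). Bcl9, a beta-catenin co-activator, fell in stretched differentiated cells at 6 h (-0.26, SE 0.0515, edgeR adjusted p = 0.00568).

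Among common target genes, Wisp1 rose in stretched differentiated cells at 3 h with 312 ± 44.8 CPM without and 496 ± 70.1 CPM with stretching (0.67, SE 0.114, edgeR adjusted p = 0.00241) and in myoblasts at 3 h from 117 ± 0.715 to 157 ± 3.91 CPM (0.41, SE 0.0250, edgeR adjusted p = 6.29e-07), and at 6 h by 0.19 (SE 0.0289, edgeR adjusted p = 0.000902). Nkd2, an inhibitor of Dishevelled, was lower in stretched than non-stretched differentiated cells, at 3 h falling from 18.8 ± 5.49 to 11.95 ± 0.681 CPM (-0.65, SE 0.169, edgeR adjusted p = 0.0206) and at 6 h from 15.7 ± 4.75 to 9.71 ± 1.15 CPM (-0.69, SE 0.186, edgeR adjusted p = 0.0237). The call at 3 h was lost on leaving out any of non-stretched replicates 7 and 8 and stretched replicates 7 and 10, and the one at 6 h on leaving out replicate 7 or 8 of either group. Cd44 rose in differentiated cells at 3 h (0.33, SE 0.0443, edgeR adjusted p = 0.000797), and Ccnd1 rose in myoblasts at 1 h (0.13, SE 0.0323, edgeR adjusted p = 0.0391).

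Myc, a growth-promoting transcription factor and common target, rose in stretched myoblasts at 1 h from 77.0 ± 2.12 to 100.5 ± 4.16 CPM (0.38, SE 0.0352, edgeR adjusted p = 0.000109) and at 3 h from 69.8 ± 2.64 to 88.0 ± 2.56 CPM (0.32, SE 0.0309, edgeR adjusted p = 1.16e-05). Its values in differentiated cells at 1 h were singled out after they were seen. The non-stretched libraries had 26.9, 28.1, 35.1 and 37.4 CPM and the stretched libraries 141 (B17), 59.3, 64.0 and 65.9 CPM. All stretched libraries were above, with a log2 fold change of 1.37 and an edgeR adjusted p of 0.0536. Without the B17 library the log2 fold change was 0.98 and the edgeR adjusted p 0.00330, and without stretched replicate 9 it was 0.0468. Leaving out any other library gave an edgeR adjusted p of 0.0868 to 0.204.

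**Figure D4:**
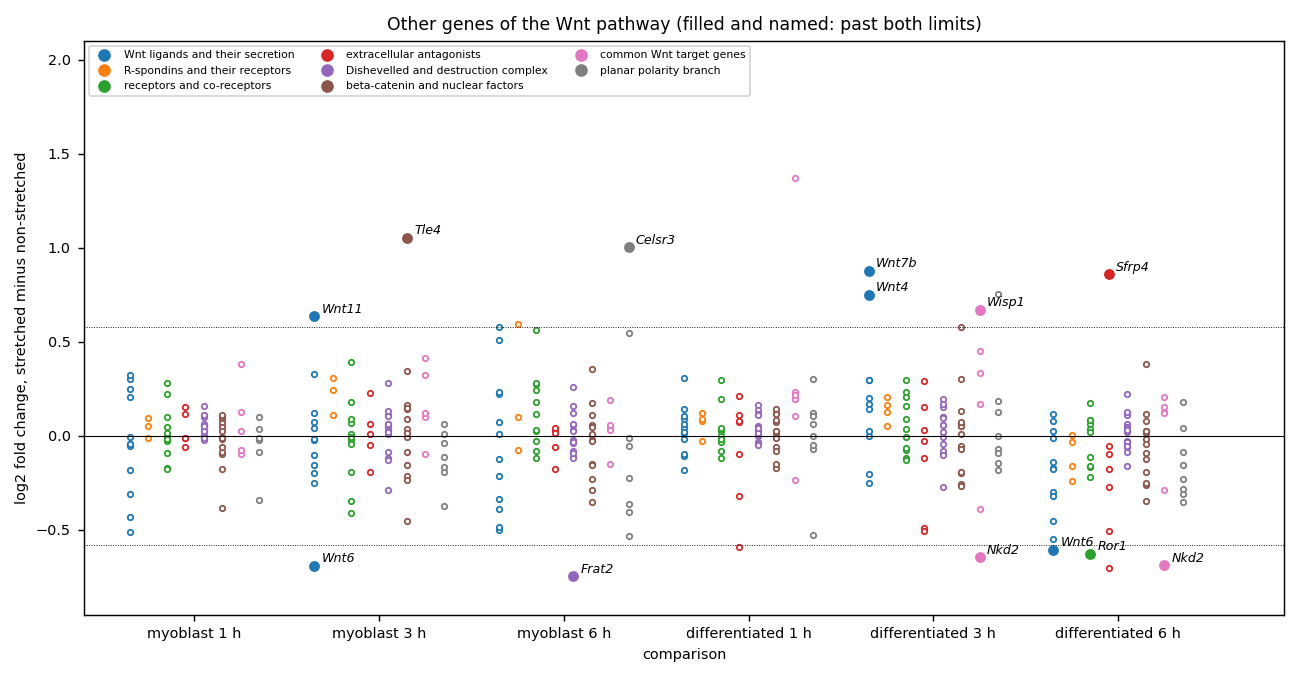
Log2 fold change (stretched minus non-stretched) of every tested gene of the list of 112 symbols in the 6 comparisons, coloured by role. Dotted lines mark the size limit of 0.58 either way. Filled, named points are genes past both limits. The highest open point in differentiated cells at 1 h is Myc at 1.37.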

How the data were processed

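Libraries were prepared with a stranded poly(A) kit and sequenced as paired ends. The authors aligned reads to mm10 with STAR and quantified them with Salmon, and deposited 1 table of whole-number counts per gene symbol for each stage, not normalized, which merges isoforms. The authors' own test was DESeq2. The 48 libraries were grouped by the labels, and 1 title code, B231, was read as B31.

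Genes were filtered with filterByExpr, scaled by TMM and tested with edgeR 4.0.16 (glmQLFit and glmQLFTest, R 4.3.3), with Benjamini-Hochberg adjustment over all genes tested. The limits were an adjusted p under 0.05 and a log2 difference of at least 0.58. Levels in CPM use TMM factors of all 48 libraries together, and log2 CPM a prior count of 1. DESeq2 1.42.0, RLE scaling, other filters, covariates, glmTreat and leaving out each library were alternatives. Libraries held 48447318 to 77080730 counts, and counting error is largest for Dkk3, at 14 to 48 counts a myoblast library. Replicates are separate samples of 1 cell line within 2 (myoblasts) or 3 (differentiated cells) experiment codes, so p-values measure the spread between these samples. The study's methods describe the differentiated groups as 2, 1 and 1 samples from 3 independent experiments, which conflicts with title codes that are mostly 2 libraries of B25 and 2 of B28. The codes were used as experiments, and which is right is not known. All 72 pairs of libraries within a group differed by more than sampling noise (chi-square per gene at least 2.64), so none was counted as a duplicate.

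The genes and the pathway list were chosen with earlier results of these data known. Text names all 10 genes, every other pathway gene called in any comparison, the 5 with the lowest adjusted p under 0.05 in each comparison, and the 5 genes most like Dkk2 and Axin2, of which 1 is not reported here. On simulated counts in which 200 genes had a log2 change of 1, 84.5% were recovered with 2 false calls for myoblasts at 6 h (14818 genes), 96.5% with 0 for the stage contrast (16623 genes) and 97.5% with 4 for the myoblast experiment contrast (15545 genes). The largest stretch change of the 10 genes in size was -0.78, and the stretch and stage simulations held no experiment effect. The recovered shares therefore do not carry over to changes of the size described here. Ccn4 was looked up as Wisp1. Gene coordinates follow GENCODE vM21 (mm10). Isoform use and protein were not analysed here.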

Additional observations from a re-analysis of the deposited data

Results flagged for a closer look

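In 120 groups of 4 libraries, 11 had 1 library whose gap to the nearest other, divided by the range of the group, passed Dixon's 95% critical value, which chance gives in about 1 group in 20. In stretched differentiated cells at 1 h, Dkk2 in replicate 4 (B17) was at 5.14 CPM beside 2.79 to 3.00 CPM (ratio 0.911). In non-stretched differentiated cells at 6 h, replicate 10 was high for Sfrp2, at 9.53 CPM beside 3.58 to 4.39 CPM (0.864), and for Dkk3, at 10.2 CPM beside 7.67 to 8.11 CPM (0.83), and replicate 9 was low for Apc2, at 3.85 CPM beside 4.89 to 5.04 CPM (0.875). In stretched differentiated cells Dkk3 was high at 3 h in replicate 10 (0.850), Axin2 low at 6 h in replicate 10 (0.856) and Amer1 high at 6 h in replicate 7 (0.856). Non-stretched differentiated cells at 3 h had a high Axin2 in replicate 7 (0.873). In myoblasts Fzd1 was low in stretched replicate 10 at 3 h (0.964), Fzd2 low in non-stretched replicate 9 at 1 h (0.833) and Amer1 high in non-stretched replicate 8 at 3 h (0.904).

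Among the Wnt genes, 6 cases had a pair of comparisons in which the stretched libraries changed sides. Every stretched library lay on 1 side of the non-stretched libraries in 1 comparison and on the other side in the other. These differences between comparisons were not tested. The genes were chosen for their response to stretching, and such cases were not counted over all genes. Whether 6 is more than other genes would give is therefore not known. Fzd6 in myoblasts had a log2 fold change of -0.110 at 1 h, then 0.374 after 3 h and -0.607 after 6 h. In differentiated cells it had 0.414 at 3 h and -0.624 at 6 h. Apc2 in myoblasts had 0.238 at 1 h and -0.779 at 3 h, and Lef1 there 0.329 at 3 h and -0.271 at 6 h. Fzd1 at 3 h had 0.133 in myoblasts and -0.169 in differentiated cells.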

How the results depend on the processing

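The 60 log2 fold changes of the Wnt genes moved by less than the SD between replicates under all 17 alternatives each. That is a weak check, since dropping the size limit leaves a fold change as it is. Leaving out 1 of 4 libraries can shift it only by part of that SD. Some values not past both limits changed sign. Axin2 in myoblasts at 1 h ran from -0.149 to 0.146, and Sfrp2 in differentiated cells at 6 h from -0.532 to 0.0542. Of 744 alternative values for the 65 tested log2 differences, 674 kept their direction and their side of the adjusted p limit. Another 68 crossed that limit and 2 changed sign. The size limit was not part of this count, so calls lost on size alone are among the 674. The changes of sign were between experiments with non-stretched libraries only. Amer1 in myoblasts was 0.0158 and Fzd1 in differentiated cells -0.0364, neither of which was called. All stage counts stayed at 5 higher and 2 lower, except 7 higher with no size limit, where 8083 of all 17044 genes were higher and 7549 lower. With no size limit the Wnt genes counted were 1 lower in myoblasts at 1 h, 3 higher and 4 lower at 3 h and 1 higher and 5 lower at 6 h. In differentiated cells they were 2 higher and 4 lower at 3 h and 3 lower at 6 h. Over all genes the same limit gave 250 higher and 634 lower of 14938 in myoblasts at 1 h. It gave 2373 and 2346 of 14813 at 3 h and 2111 and 1949 of 14938 at 6 h. In differentiated cells it gave 1676 and 1767 of 15513 at 3 h and 1772 and 1666 of 15433 at 6 h. With no size limit the pathway counts were 4 higher and 2 lower, 22 and 8, and 13 and 12 in myoblasts at 1, 3 and 6 h. In differentiated cells they were 17 and 8 at 3 h and 5 and 14 at 6 h. Between differentiated experiments 2 Wnt genes were then called higher, beside 1438 of all 16420 genes. A test against the size limit itself (glmTreat) called 0 Wnt genes and 0 pathway genes in every stretch comparison. In myoblasts at 6 h, 1 Wnt gene was called lower and 0 pathway genes higher with no filter on low counts and with DESeq2, and 2 pathway genes were higher with experiment as a covariate. In differentiated cells 1 pathway gene was called higher at 1 h with no filter, with experiment as a covariate, with the 24 libraries of the stage in 1 model and with DESeq2, and 0 lower at 3 h with the 24-library model. The cause of these shifts was not tested, apart from the size limit. Leaving out 1 library gave, for Wnt genes, 0 to 2 lower and 0 to 1 higher in myoblasts at 6 h, and in differentiated cells 0 to 2 lower at 3 h and 0 to 1 lower at 6 h. For pathway genes it gave 1 to 2 higher and 0 to 1 lower in myoblasts at 3 h, 0 to 3 higher and 1 to 3 lower at 6 h, and in differentiated cells 0 to 1 higher at 1 h, 3 to 4 higher and 0 to 1 lower at 3 h, and 0 to 1 higher and 1 to 3 lower at 6 h. Same-numbered replicates were at most weakly alike: 6 of 23 pairs had a correlation of deviations over 0.1 (range -0.0450 to 0.152). The main stretch fit had no term for replicate or experiment. Over all genes in differentiated cells at 1 h it called 14 higher and 28 lower, and 30 and 36 with experiment as a covariate. With the replicate number as a block, 2 pathway genes were called higher in myoblasts at 6 h and 1 in differentiated cells at 1 h. Depth limits Dkk3, Sfrp2 and Axin2 in myoblasts most.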

Other observations

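Other genes of the pathway list also differed between the stages in the edgeR fit, and those named here were chosen after their values were seen. Porcn, which acylates Wnts before secretion, rose from 3.18 ± 0.334 CPM (SD, n = 24) in myoblasts to 110.1 ± 12.2 CPM in differentiated cells (log2 difference 5.11, SE 0.0370, edgeR adjusted p = 1.38e-54). Kremen1, which acts with Dkk proteins at the Lrp co-receptors, rose from 122 ± 7.07 to 329.7 ± 14.4 CPM (1.44, SE 0.0182, edgeR adjusted p = 2.11e-45). Wnt9a rose from 5.52 ± 0.584 to 53.8 ± 8.72 CPM (3.28, SE 0.0413, edgeR adjusted p = 1.98e-45), and Daam2 from 5.69 ± 1.27 to 161 ± 14.0 CPM (4.85, SE 0.0413, edgeR adjusted p = 6.22e-52). Ccnd1, the cyclin D1 gene, fell from 629 ± 31.5 to 62.0 ± 6.76 CPM (-3.35, SE 0.0267, edgeR adjusted p = 5.66e-53). Of the 11 receptor and co-receptor genes tested, 8 were called higher and 0 lower, and of the 7 antagonist genes 3 were called higher and 3 lower, beside 27.9% of all genes called higher and 23.8% lower. Stage and experiment cannot be told apart in these values either.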
